A study of Mus musculus with 2 samples.

Results

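The genes of endoplasmic reticulum (ER) translocation and the early secretory pathway were followed across 2 RNA-seq libraries of macrophages sorted from leukaemic mice, 1 from bone marrow and 1 from spleen. Members were taken by gene symbol: the Srp genes of the signal recognition particle, the Sec genes of the translocon and the COPII coat, the Ssr, Spcs, Pdia, Tmed and Kdelr genes and the Cop genes of the COPI coat. The rule found 68 genes of 16428 with a read in either library, and 64 of them had 10 or more reads in a library. All 64 also passed the floor of 1 CPM (read counts scaled to library depth) and 10 reads in a library, which 12970 genes passed. By role, 61 of the 64 fell into 10 groups, and Sec14l1, Sec14l2 and Sec1 matched the symbol pattern only. Just inside the limit of 10 reads lay Copz2, with 14 reads in each library, and Sec1, with 0 reads in bone marrow against 16 in spleen. Just outside lay Kdelr3 and Pdia2, each with 2 reads in bone marrow against 5 in spleen, Tmed6 with 1 in bone marrow against 4 in spleen, and the antisense transcript Copg2as2 with 0 in bone marrow against 1 in spleen.

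Both libraries came from C57BL/6J mice, given as 6 to 8 weeks old, that had received 500000 GFP+ leukaemia cells each without irradiation. The leukaemia is the MLL-AF9 model of acute myeloid leukaemia (AML), in which mice survived for 25 to 30 days, and the macrophages were sorted on day 15. The sources used here do not give the sort markers or the number of mice behind each library, and healthy macrophages were not analysed here. The question asked of the libraries was how macrophages of the leukaemic marrow and spleen differ. No replicate check is possible with a single library per tissue, so each difference is between these libraries, and the 95% intervals of folds cover counting error only.

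Proteins destined for secretion or for membranes enter this pathway while they are being made. The signal recognition particle takes the ribosome to the ER membrane, the Sec61 channel passes the chain through it, signal peptidase removes the signal sequence, and protein disulphide isomerases help the chain to fold. COPII vesicles then carry cargo from the ER towards the Golgi, COPI vesicles return escaped proteins, and p24 proteins and KDEL receptors sort cargo in both steps. Cells that fill granules or secrete antibody depend heavily on it.

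Most members stood somewhat higher in the bone marrow library, by less than 2-fold. Of the 64, 53 (82.8%) had a log2 ratio above 0 (bone marrow minus spleen on log2(CPM + 1), a scale that understates differences of low genes), against 51.4% of all genes past the floor. The counting interval of the fold lay wholly above equal levels for 45 members and wholly below for 8. Such counts, here and by role below, were not made over all genes and so have no background share. Intervals narrow as reads rise, and the median member was more abundant per length than the median gene in both libraries. The median log2 ratio of the members was 0.45, beside 0.03 over all genes, and the middle of the members ran from 0.10 (lower quartile) to 0.74 (upper quartile), against -0.59 and 0.58 for all genes. A log2 ratio of 1 or more, the limit called 2-fold here, was reached by 7 members (10.9%) towards bone marrow, against 14.1% of all genes, and by 2 members (3.13%) towards spleen, against 14.6%, so large differences were not more frequent among the members than in the background. The 7 were Tmed3, Pdia5, Sec16b, Sec22c, Sec24d, Kdelr2 and Ssr2, and the 2 were Tmed8 and Sec1. With a 1.5-fold limit, 25 members (39.1%) were higher in bone marrow, against 24.7% of all genes, and 5 (7.81%) were higher in spleen, against 25.1%, the 5 being Tmed8, Sec1, Sec31b, Sec24a and Sec24b. The members took 0.888% of bone marrow reads (exact Clopper-Pearson interval 0.882 to 0.894) and 0.643% of spleen reads (0.638 to 0.649).

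**Figure D1:**
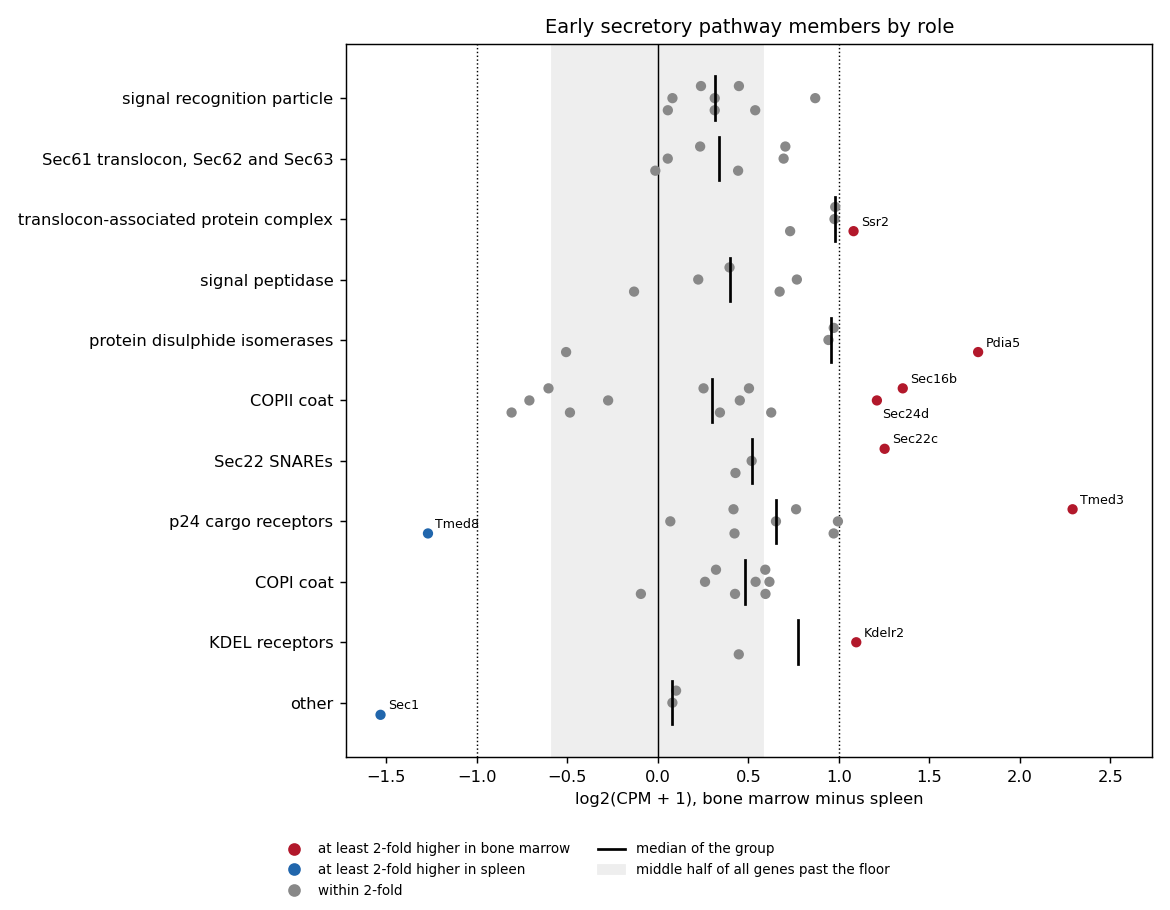
Difference between libraries (x axis, log2(CPM + 1), bone marrow minus spleen) for the 64 members, in rows by role; points are genes, red at least 2-fold higher in bone marrow, blue at least 2-fold higher in spleen, black bars are medians, dotted lines mark 2-fold and the grey band the middle of all genes past the floor between quartiles. All 4 translocon-associated protein genes lie between 0.73 and 1.08, while the COPII genes spread from -0.81 to 1.35.

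The same libraries also differed in marker genes of macrophages, of other cell types and of proliferation, which are given here beside these differences. The lists are named by cell type and do not show which cells the reads came from. All 12 macrophage markers passed the floor, at a summed 583 CPM in bone marrow, against 1162 CPM in spleen. Of the 12, 5 (41.7%) were at least 2-fold higher in spleen, against 14.6% of all genes, and none in bone marrow, against 14.1%. A ratio above 0 was found for 2, the larger at 0.92 in log2. The count was 1 with library totals alone or the deposited RPKM, where Fcgr1 fell below 0. All 13 granulocyte precursor markers were higher in bone marrow by 2-fold or more, at 48652 CPM in bone marrow, against 2198 CPM in spleen, and they took 4.75% of all bone marrow reads against 0.225% of spleen reads. All 12 proliferation genes were also at least that much higher in bone marrow, at 4061 CPM in bone marrow against 1107 CPM in spleen. In spleen, 8 of 10 plasma cell genes were at least 2-fold higher, at 573 CPM in bone marrow, against 2325 CPM in spleen, as were all 9 B cell markers (430 CPM in bone marrow against 4763 CPM in spleen), all 9 T cell markers (187 CPM in bone marrow against 1515 CPM in spleen) and 8 of 9 conventional dendritic cell markers (180 CPM in bone marrow against 1210 CPM in spleen). Of 7 megakaryocyte markers past the floor, 6 were higher in bone marrow (343 CPM in bone marrow against 28.0 CPM in spleen), and of 9 erythroid markers 1 was higher in each library (353 CPM in bone marrow against 218 CPM in spleen). No marker was at 0 reads in either library except Gp6, a platelet receptor, which was at 0 in both. The part of these cells in the results was not tested, and in bulk RNA fewer cells of a type and less RNA per cell cannot be told apart.

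A motif search covered the promoter windows of the members, from 250 bases before to 50 after the RefSeq transcription start (GRCm38.p6). Of the 64 members, 55 matched the promoter table, with 60 windows. The motifs were the ER stress elements ERSE (CCAAT, 9 bases of any kind, CCACG) and ERSE-II (ATTGG, 1 base of any kind, CCACG), and the core of the unfolded protein response element, TGACGTGG, each read on both strands. TGACGTGG on the opposite strand holds CCACG, so its letters overlap those of the ER stress elements. An ERSE was found in 1 member window (1.67%), that of Pdia6, against 0.119% of all 32851 windows, and ERSE-II in 0 of 60, against 0.0365%. TGACGTGG was found in 5 member windows (8.33%), those of Copb1, Copb2, Sec16b, Sec23a and Sec24d, against 0.676% of all windows. Among the 13185 windows of genes past the floor, the shares were 0.827% for TGACGTGG, 0.114% for ERSE and 0.0607% for ERSE-II. A match shows only that these letters are present. Sec16b and Sec24d were among the 7 members at least 2-fold higher in bone marrow, and Copb1, Copb2 and Sec23a were within 2-fold.

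The stretches of 100 bases below show the matches in capitals, read 5′ to 3′ on the strand of the gene. They come from RefSeq and are the Pdia6 window with the well known ERSE of Hspa5, the ER chaperone BiP, for comparison, and the 5 windows with the unfolded protein response core. Pdia6 lies at chr12:17266450-17266549 (+ strand), Hspa5 at chr2:34771984-34772083 (+), Sec24d at chr3:123267424-123267523 (+), Sec16b at chr1:157506706-157506805 (+), Sec23a at chr12:59011968-59012067 (- strand), Copb1 at chr7:114254655-114254754 (-) and Copb2 at chr9:98563678-98563777 (+).
Pdia6: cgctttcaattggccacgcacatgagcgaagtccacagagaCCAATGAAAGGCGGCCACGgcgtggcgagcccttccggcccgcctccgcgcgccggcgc
Hspa5: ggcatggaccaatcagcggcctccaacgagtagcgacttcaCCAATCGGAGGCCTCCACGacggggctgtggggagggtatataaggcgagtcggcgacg
Sec24d: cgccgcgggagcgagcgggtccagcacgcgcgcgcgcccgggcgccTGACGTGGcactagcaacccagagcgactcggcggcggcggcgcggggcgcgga
Sec16b: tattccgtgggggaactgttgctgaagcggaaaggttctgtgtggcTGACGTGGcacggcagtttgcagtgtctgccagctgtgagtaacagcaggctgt
Sec23a: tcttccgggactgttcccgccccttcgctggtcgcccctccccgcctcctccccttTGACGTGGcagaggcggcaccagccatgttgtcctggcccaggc
Copb1: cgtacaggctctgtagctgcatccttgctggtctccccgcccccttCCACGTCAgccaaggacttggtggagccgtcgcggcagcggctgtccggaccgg
Copb2: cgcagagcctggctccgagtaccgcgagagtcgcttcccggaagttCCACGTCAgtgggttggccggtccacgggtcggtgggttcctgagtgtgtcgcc

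Genes of the signal recognition particle differed little between the libraries. All 8 had a ratio above 0, against 51.4% of all genes, and the median log2 ratio was 0.31. The count was 7 with library totals alone or the deposited RPKM, where Srp54a fell below 0. None of the 8 reached 2-fold, against 14.1% of all genes towards bone marrow and 14.6% towards spleen. Srp68, which with Srp72 forms the large heterodimer of the particle, had the largest ratio. It was at 166 CPM in bone marrow, against 90.3 CPM in spleen, a 1.84-fold difference (interval 1.68 to 2.0). Its partner Srp72 was at 206 CPM in bone marrow against 151 CPM in spleen, 1.37-fold higher in bone marrow (1.27 to 1.47). Srp9 and Srp14 form the pair that slows translation while the ribosome is being targeted. Srp9 was at 88.9 CPM in bone marrow, against 75.2 CPM in spleen, and Srp14 at 68.6 CPM in bone marrow, against 64.8 CPM in spleen. The interval of Srp14, 0.94 to 1.19, included equal levels. Srp19, an assembly factor of the particle, was at 45.1 CPM in bone marrow, against 36.1 CPM in spleen.

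Srp54, the GTPase that binds the signal sequence, is present in the mouse tables as Srp54a, Srp54b and Srp54c, and its level could not be read from them. These copies are nearly identical and only uniquely placed reads were counted. Srp54a had 176 reads in bone marrow, against 152 in spleen, Srp54c 106 in bone marrow against 75 in spleen, and Srp54b 43 in bone marrow against 24 in spleen. The reads covered 30.0% of the length of Srp54a in bone marrow, against 30.1% in spleen, 13.9% of Srp54c in bone marrow against 13.4% in spleen, and 9.01% of Srp54b in bone marrow against 5.60% in spleen, in the deposited coverage column. The median member was covered over 95.5% of its length in bone marrow, against 95.6% in spleen. The RPKM (reads per kilobase of gene, scaled to library depth) of Srp54a was 4.29 in bone marrow and 4.31 in spleen, while that of Srp19 was 49.5 in bone marrow, against 41.5 in spleen. All 3 intervals of the Srp54 folds included equal levels.

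**Figure D2:**
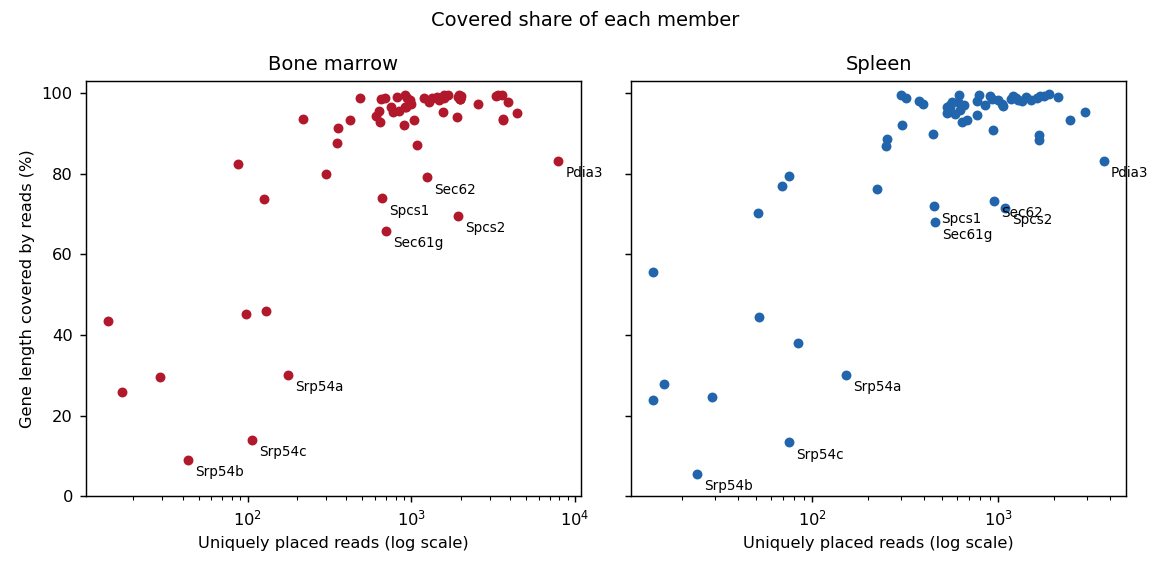
Percent of each member's length covered by reads (y axis) against its uniquely placed reads (x axis, log scale), bone marrow left and spleen right; points are genes with a read in that library. Srp54a, Srp54b and Srp54c lie at or below 30.1% in both libraries, under genes with similar read numbers.

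The translocon itself was modestly higher in bone marrow, and Sec62 and Sec63 were closer to level. Sec61a1, the channel-forming alpha subunit, was at 358 CPM in bone marrow, against 221 CPM in spleen, a 1.62-fold difference (1.53 to 1.72). The beta subunit Sec61b was at 127 CPM in bone marrow against 77.3 CPM in spleen (1.64-fold, 1.49 to 1.80), and the gamma subunit Sec61g at 74.0 CPM in bone marrow against 54.2 CPM in spleen (1.37-fold, 1.21 to 1.54). The 3 subunits of the channel thus differed in the same direction, and none by 2-fold. Sec62 was at 132 CPM in bone marrow, against 112 CPM in spleen. Sec63, which with Sec62 assists chains that enter after synthesis, was at 110 CPM in bone marrow against 111 CPM in spleen, with an interval of 0.91 to 1.08 around equal levels. Sec61a2, the second alpha gene, had 87 reads in bone marrow against 75 in spleen (fold interval 0.76 to 1.44) and made up 3.21% of the alpha RPKM in bone marrow, against 4.91% in spleen.

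The translocon-associated protein (TRAP) complex, a 4-subunit partner of Sec61 that aids the insertion of certain signal sequences, was higher in bone marrow by close to 2-fold. Its 4 genes lay close together, with log2 ratios from 0.73 to 1.08 and a median of 0.98. Ssr1 (TRAP alpha) was at 384 CPM in bone marrow, against 195 CPM in spleen. Ssr2 (beta) was at 152 CPM in bone marrow against 71.5 CPM in spleen, Ssr3 (gamma) at 378 CPM in bone marrow against 191 CPM in spleen and Ssr4 (delta) at 115 CPM in bone marrow against 69.0 CPM in spleen. Only Ssr2 passed the 2-fold limit, at 2.13-fold higher in bone marrow (1.94 to 2.35). Ssr3 and Ssr1 lay just inside it at 1.98-fold (1.86 to 2.10) and 1.97-fold (1.86 to 2.09), so the limit separates genes whose intervals overlap. Ssr4 was 1.67-fold higher (1.51 to 1.85). The summed level of the 4 genes was 1030 CPM in bone marrow, against 527 CPM in spleen.

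Of the 5 signal peptidase genes, 4 had an interval wholly above equal levels. None reached 2-fold, against 14.1% of all genes towards bone marrow and 14.6% towards spleen. The accessory subunits had the larger ratios. Spcs3 was at 271 CPM in bone marrow, against 159 CPM in spleen (1.71-fold, 1.60 to 1.83), Spcs2 at 205 CPM in bone marrow against 128 CPM in spleen (1.60-fold, 1.48 to 1.72) and Spcs1 at 70.2 CPM in bone marrow against 53.1 CPM in spleen (1.32-fold, 1.17 to 1.49). Of the alternative catalytic subunits, Sec11a was at 73.0 CPM in bone marrow, against 62.4 CPM in spleen (1.17-fold, 1.04 to 1.31, which overlaps the interval of Spcs1), and Sec11c at 97.3 CPM in bone marrow against 107 CPM in spleen (ratio 0.91, 0.83 to 1.0, which includes equal levels). Sec11c held the larger share of the catalytic RPKM in both libraries, 65.8% in bone marrow, against 71.2% in spleen.

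Among the protein disulphide isomerases, 3 of 4 measured genes were higher in bone marrow and Pdia4 was higher in spleen. Pdia3 (ERp57), which works with calnexin and calreticulin on glycoproteins, was the most abundant member per length in both libraries, at 309 RPKM in bone marrow, against 168 RPKM in spleen. Its 841 CPM in bone marrow, against 437 CPM in spleen, gave a 1.92-fold difference (1.85 to 2.0). Pdia6, whose promoter holds the ERSE shown above, was at 384 CPM in bone marrow against 195 CPM in spleen (1.97-fold, 1.85 to 2.09). Pdia5 was scarcer, with 216 reads in bone marrow, against 51 in spleen, or 23.0 CPM in bone marrow against 6.03 CPM in spleen, and it had the second largest ratio of all members, at 3.81-fold higher in bone marrow (2.80 to 5.27). Pdia4 (ERp72) ran the other way, at 203 CPM in bone marrow, against 288 CPM in spleen, which is 1.42-fold lower in bone marrow (1.34 to 1.51). Plasma cell genes were lower in bone marrow as well, at a summed 573 CPM in bone marrow, against 2325 CPM in spleen, and their part in the Pdia4 difference was not tested.

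**Figure D3:**
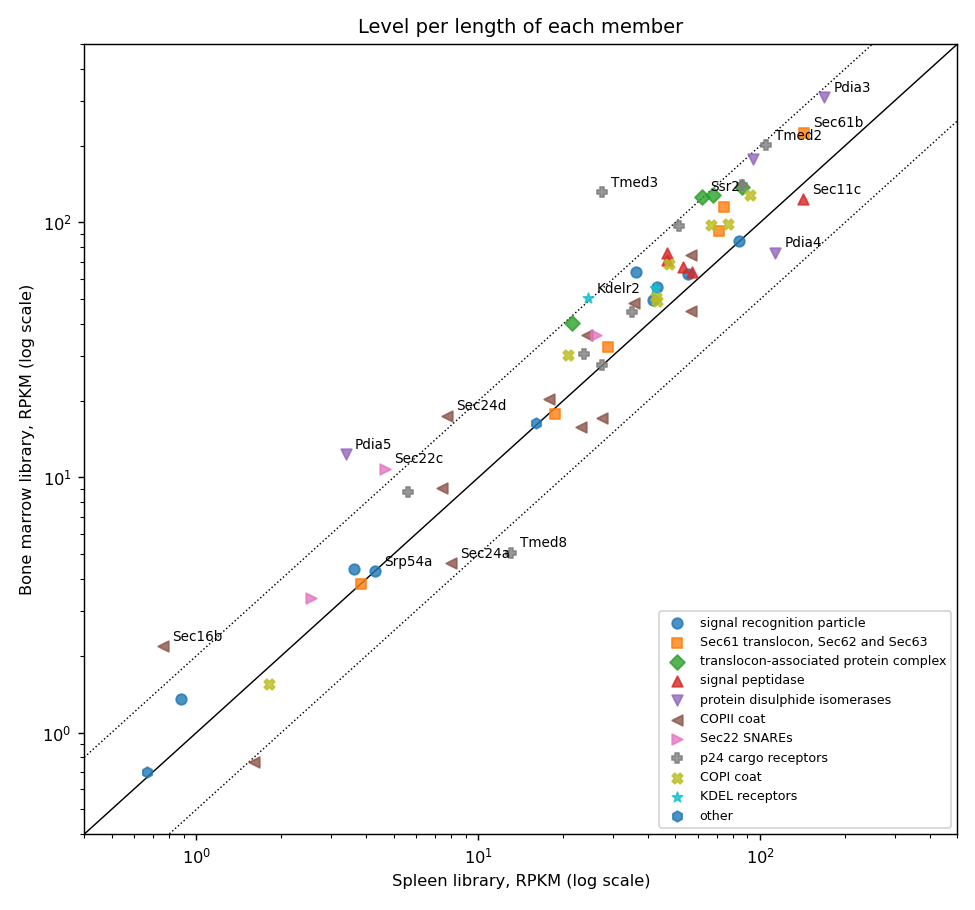
Level of each member in deposited RPKM, bone marrow on the y axis and spleen on the x axis, both log scales; marker shapes give roles, the solid line marks equal RPKM and the dotted lines 2-fold. Tmed3 (131 RPKM in bone marrow, 27.5 RPKM in spleen) lies farthest above the line among abundant members, and Pdia4 (75.9 RPKM in bone marrow, 113 RPKM in spleen) below it; Sec1, at 0 in bone marrow, is not drawn.

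Of the 12 COPII coat genes, 2 (16.7%) were higher in bone marrow by 2-fold or more, near the 14.1% of all genes, and none in spleen. A ratio above 0 was found for 7 (58.3%), against 51.4% of all genes. Counting intervals lay wholly above equal levels for 7 genes and wholly below for 5. The inner coat gene Sec23b was at 104 CPM in bone marrow, against 66.8 CPM in spleen (1.55-fold, 1.40 to 1.72), and Sec23a at 38.1 CPM in bone marrow against 29.8 CPM in spleen. Of the outer coat genes, Sec31a was at 210 CPM in bone marrow, against 148 CPM in spleen, and Sec13 at 99.4 CPM in bone marrow, against 72.4 CPM in spleen. Sec23ip, a Sec23-binding protein of ER exit sites, was at 95.3 CPM in bone marrow against 79.8 CPM in spleen.

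The 4 Sec24 genes, which encode the cargo-binding subunits of COPII, differed in opposite directions. Sec24d was at 69.4 CPM in bone marrow, against 29.4 CPM in spleen, 2.36-fold higher in bone marrow (2.03 to 2.74). The other paralogues were all lower in bone marrow. Sec24a was at 32.0 CPM in bone marrow against 53.0 CPM in spleen (1.66-fold lower, 1.43 to 1.92), Sec24b at 82.5 CPM in bone marrow against 126 CPM in spleen (1.53-fold lower, 1.39 to 1.68) and Sec24c at 204 CPM in bone marrow against 247 CPM in spleen (1.21-fold lower, 1.14 to 1.29). The make-up of the set therefore differed. Sec24d held 20.8% of the set's RPKM in bone marrow, against 7.77% in spleen, while Sec24c was the largest in both, at 53.3% in bone marrow against 56.8% in spleen.

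The scaffold genes of ER exit sites showed the same kind of split. Sec16a was at 142 CPM in bone marrow, against 199 CPM in spleen, 1.40-fold lower in bone marrow (1.30 to 1.51). The shorter paralogue Sec16b had 97 reads in bone marrow, against 29 in spleen, and was 3.01-fold higher in bone marrow (1.97 to 4.72). It held 12.2% of the pair's RPKM in bone marrow, against 3.18% in spleen. Its reads covered 45.2% of its length in bone marrow, against 24.6% in spleen, so its level rests on few reads, and with a pseudocount of 5 its log2 ratio was 0.86, inside the limit. Sec31b, the minor outer coat gene, had 29 reads in bone marrow, against 52 in spleen (1.99-fold lower in bone marrow, 1.24 to 3.26).

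**Figure D4:**
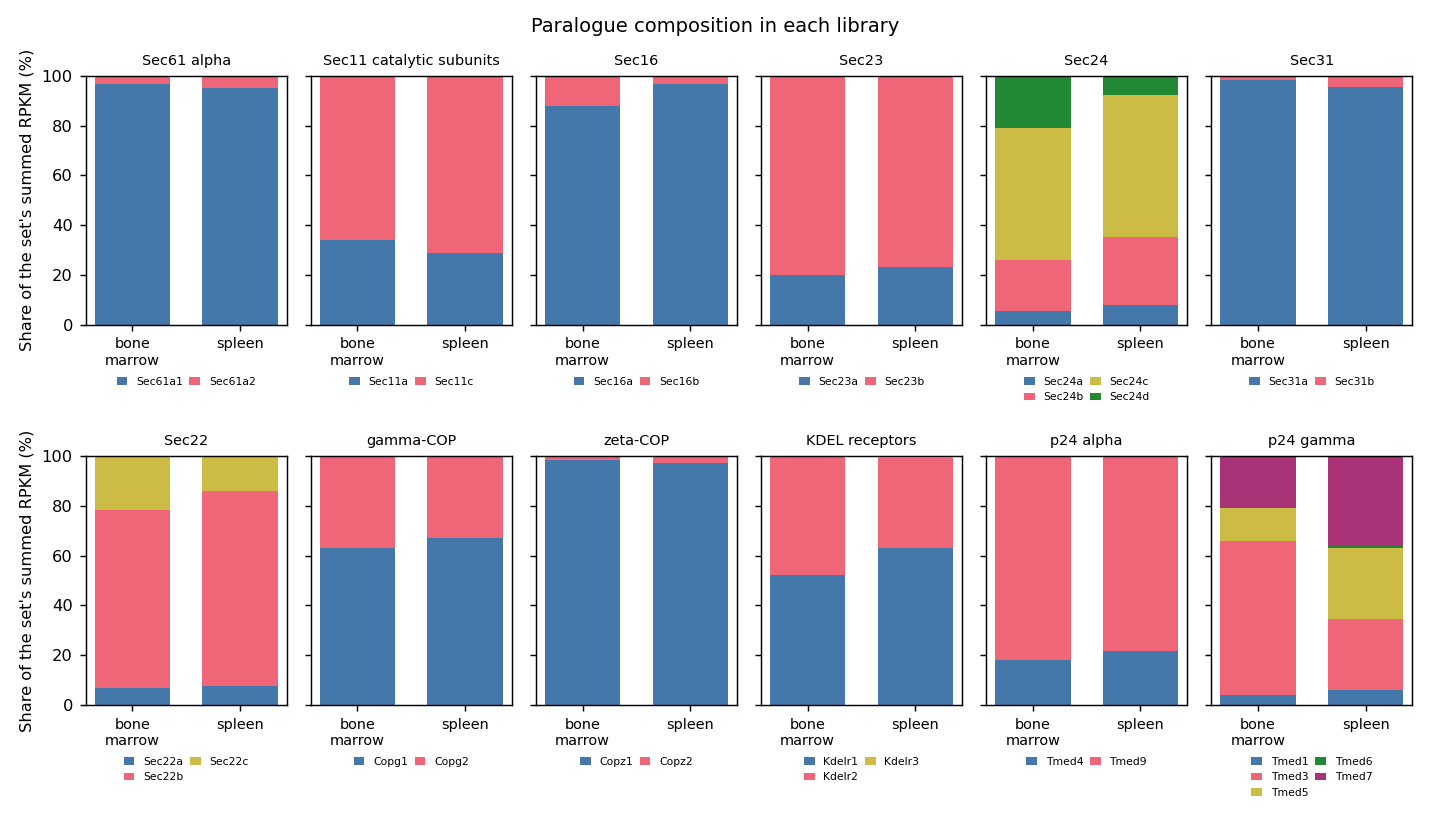
Share of each paralogue in the summed RPKM of its set (y axis, percent), with bone marrow left of spleen in each panel and genes by colour. Tmed3 takes 61.9% of the p24 gamma set in bone marrow, against 28.7% in spleen, Sec24d 20.8% of the Sec24 set in bone marrow and 7.77% in spleen, while Sec61 alpha, Sec31 and zeta-COP are held by a single gene at 95.1% or more in both libraries.

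The Sec22 genes, relatives of the SNARE that fuses ER and Golgi carriers, were all higher in bone marrow. Sec22b, the SNARE itself, was at 67.0 CPM in bone marrow, against 46.5 CPM in spleen (1.44-fold, 1.27 to 1.64). Sec22c was at 64.2 CPM in bone marrow against 26.4 CPM in spleen, 2.44-fold higher in bone marrow (2.09 to 2.85). Sec22a was the least abundant, at 13.7 CPM in bone marrow against 9.93 CPM in spleen.

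The p24 proteins, which collect cargo such as GPI-anchored proteins into vesicles, held the member with the largest ratio. Tmed3, of the p24 gamma subfamily, had 1675 reads in bone marrow, against 301 in spleen. It was at 178 CPM in bone marrow, against 35.6 CPM in spleen, 5.00-fold higher in bone marrow (4.42 to 5.68), and it was the only member past a 4-fold limit, which 4.42% of all genes passed towards bone marrow and 4.09% towards spleen. It stood at place 378 of the 12970 genes ranked by ratio towards bone marrow. The other gamma genes differed far less. Tmed7 was at 158 CPM in bone marrow, against 118 CPM in spleen, Tmed5 at 105 CPM in bone marrow against 100.5 CPM in spleen and Tmed1 at 13.4 CPM in bone marrow against 8.16 CPM in spleen. Tmed3 thus held 61.9% of the gamma RPKM in bone marrow, against 28.7% in spleen, where Tmed7 was the largest at 36.4%, against 21.0% in bone marrow.

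The single-gene p24 subfamilies differed in parallel. Tmed2 (p24 beta) was at 416 CPM in bone marrow, against 208 CPM in spleen, 2.0-fold higher in bone marrow (1.89 to 2.11). Its log2 ratio of 0.99 was just inside the limit and passed it with DESeq2 size factors, at 1.01. Tmed10 (p24 delta) was at 348 CPM in bone marrow against 177 CPM in spleen, 1.97-fold higher (1.85 to 2.09). Of the alpha genes, Tmed9 was at 210 CPM in bone marrow against 123 CPM in spleen (1.70-fold, 1.58 to 1.84) and Tmed4 at 51.2 CPM in bone marrow against 38.0 CPM in spleen (1.35-fold, 1.17 to 1.56). Tmed8, placed in the group by its symbol and in none of the alpha, beta, gamma and delta subfamilies above, was the exception. It had 351 reads in bone marrow, against 773 in spleen, or 37.3 CPM in bone marrow against 91.4 CPM in spleen, and was 2.45-fold lower in bone marrow (2.16 to 2.79).

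The COPI coat genes other than Copz2 were slightly higher in bone marrow. Of its 8 genes none reached 2-fold, against 14.1% of all genes towards bone marrow and 14.6% towards spleen. Intervals lay wholly above equal levels for 7, and the median log2 ratio was 0.48. Copa (alpha) was at 467 CPM in bone marrow, against 348 CPM in spleen (1.34-fold, 1.28 to 1.41). Copb2 (beta prime) was at 214 CPM in bone marrow against 141 CPM in spleen, Copb1 (beta) at 167 CPM in bone marrow against 139 CPM in spleen and Cope (epsilon) at 137 CPM in bone marrow against 93.6 CPM in spleen. Of the gamma paralogues, Copg1 was at 209 CPM in bone marrow, against 167 CPM in spleen, and Copg2 held 37.1% of the gamma RPKM in bone marrow, against 32.8% in spleen. Copg2 was at 98.4 CPM in bone marrow, against 64.9 CPM in spleen, and since strand use in counting is not given in the sources used here, its reads cannot be told apart from those of the antisense gene Copg2as2. Copz1 held 98.4% of the zeta RPKM in bone marrow, against 97.4% in spleen, at 168 CPM in bone marrow against 109 CPM in spleen, and Copz2 had 14 reads in each library. Per length, the coat genes other than Copz2 ranged from 30.1 RPKM (Copg2) to 128 RPKM (Cope) in bone marrow and from 20.8 to 91.9 RPKM for the same genes in spleen.

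KDEL receptors return ER residents that have escaped to the Golgi. Kdelr2 was at 96.4 CPM in bone marrow, against 44.6 CPM in spleen, 2.16-fold higher in bone marrow (1.92 to 2.45). Kdelr1 was at 86.1 CPM in bone marrow against 62.9 CPM in spleen, 1.37-fold higher (1.23 to 1.53). The intervals of the 2 genes do not overlap. By reads, Kdelr2 made up 52.8% of the receptor genes in bone marrow (exact interval 50.4 to 55.1) and 41.2% in spleen (38.0 to 44.5). Per length, Kdelr1 was the larger in both libraries, at 55.2 RPKM against 50.4 RPKM for Kdelr2 in bone marrow, and at 42.2 RPKM against 24.4 RPKM for Kdelr2 in spleen.

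The 3 genes that only share the symbol pattern did not follow the pathway. Sec14l1, a lipid-binding protein, was at 79.3 CPM in bone marrow, against 73.9 CPM in spleen, with an interval of 0.96 to 1.20. Sec14l2 had 17 reads in bone marrow against 14 in spleen. Sec1, a fucosyltransferase gene, had 0 reads in bone marrow, against 16 in spleen (1.89 CPM). With the 0 set to 3 reads it was 5.93-fold lower in bone marrow, and its counting interval allowed a difference as small as 4.29-fold. Without these 3, the median log2 ratio of the members was 0.45 and 1 member, Tmed8, was at least 2-fold higher in spleen.

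The rest of the pathway was read from 9 lists with 164 partner genes, of which 162 passed the floor. Of these, 13 (8.02%) were higher in bone marrow by 2-fold or more and 5 (3.09%) in spleen, both shares below the 14.1% and 14.6% of all genes, with a median log2 ratio of 0.24. The oligosaccharyltransferase, which adds sugar chains beside the translocon, leaned the same way as the TRAP complex. All 12 of its genes had a ratio above 0, against 51.4% of all genes, with a median of 0.57. The count was 11 with library totals alone or the deposited RPKM, where Tusc3 fell below 0. Of the 12, 3 (25.0%) were higher in bone marrow by 2-fold or more, against 14.1% of all genes. These were Ddost, Rpn2 and Rpn1. Ddost was at 368 CPM in bone marrow, against 155 CPM in spleen, and Rpn2 at 528 CPM in bone marrow against 225 CPM in spleen. Rpn1 was at 392 CPM in bone marrow against 175 CPM in spleen. Among 12 partners of the translocon, Nomo1 was higher in bone marrow, at 262 CPM in bone marrow against 96.0 CPM in spleen, and Tram2 was lower, with 39 reads in bone marrow against 79 in spleen. The SRP receptor subunits were nearly level, with Srpra at 150 CPM in bone marrow, against 134 CPM in spleen, and Srprb at 56.3 CPM in bone marrow, against 50.7 CPM in spleen. The 17 tail-anchor and ER membrane complex genes all lay within the 2-fold limit on log2(CPM + 1) (median 0.28). Of all genes, 14.1% passed that limit towards bone marrow and 14.6% towards spleen. Among the 17, Emc9 had 28 reads in bone marrow against 54 in spleen and a log2 ratio of -0.89. As a CPM ratio it was 2.14-fold lower in bone marrow (1.33 to 3.52).

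Of 27 ER chaperones and folding enzymes, 4 (14.8%) were higher in bone marrow by 2-fold or more, close to the 14.1% of all genes, and 2 (7.41%) in spleen, against 14.6% of all genes. A ratio above 0 was found for 23 (85.2%), against 51.4% of all genes (22 with library totals alone or the deposited RPKM, where Erp29 was below 0), and the list's median log2 ratio was 0.55. P4hb, the archetypal protein disulphide isomerase, was at 1140 CPM in bone marrow, against 315 CPM in spleen, 3.62-fold higher in bone marrow (3.46 to 3.77). Ero1a, an oxidase that recharges it, was at 244 CPM in bone marrow against 62.4 CPM in spleen, 3.91-fold higher (3.56 to 4.31). The other ER oxidase, Ero1b, was at 49.4 CPM in bone marrow against 143 CPM in spleen, 2.90-fold lower in bone marrow (2.60 to 3.23), and the isomerase Txndc5 was at 131 CPM in bone marrow against 350 CPM in spleen, 2.68-fold lower (2.50 to 2.86). Calr was at 1821 CPM in bone marrow, against 677 CPM in spleen, and Sdf2l1 at 126 CPM in bone marrow against 55.3 CPM in spleen. Hspa5 was at 1204 CPM in bone marrow against 753 CPM in spleen (1.60-fold, 1.55 to 1.65) and Hsp90b1 at 987 CPM in bone marrow against 877 CPM in spleen. Granulocyte precursor markers were higher in bone marrow (48652 CPM in bone marrow against 2198 CPM in spleen) and plasma cell genes in spleen (573 CPM in bone marrow against 2325 CPM in spleen), and their part in these differences was not tested. Fkbp11 is on both the chaperone list and the plasma cell list, and it was 1.53-fold higher in bone marrow (1.11 to 2.14).

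Degradation and stress signalling genes did not share the lean towards bone marrow. Of 20 genes of ER-associated degradation, 9 (45.0%) had a ratio above 0 (median -0.05), against 51.4% of all genes. None was 2-fold or more higher in bone marrow, against 14.1% of all genes, and 2 (10.0%) were in spleen, against 14.6%. Derl3, a derlin that is also on the plasma cell list, had 29 reads in bone marrow, against 224 in spleen, 8.59-fold lower in bone marrow (5.82 to 13.1). Syvn1, the ubiquitin ligase of this pathway, was at 114 CPM in bone marrow against 251 CPM in spleen. Vcp and Nploc4 came next by size of ratio and were higher in bone marrow. Vcp was at 629 CPM in bone marrow against 373 CPM in spleen (1.69-fold, 1.62 to 1.76). Nploc4 was at 141 CPM in bone marrow against 87.4 CPM in spleen (1.61-fold, 1.47 to 1.76). Of 16 regulators of the unfolded protein response, 8 (50%) had a ratio above 0 (median -0.06), near the 51.4% of all genes, and 2 (12.5%) were higher in bone marrow by 2-fold or more, near the 14.1% of all genes. These were the stress sensor Ern1 (IRE1), at 71.0 CPM in bone marrow, against 31.4 CPM in spleen, and Creb3l1, with 23 reads in bone marrow against 6 in spleen. Atf3 and Creb3 followed by size of ratio and ran the other way. Atf3 was at 22.6 CPM in bone marrow against 43.0 CPM in spleen (1.90-fold lower in bone marrow, 1.60 to 2.26). Creb3 was at 22.3 CPM in bone marrow against 39.6 CPM in spleen (1.77-fold lower, 1.49 to 2.12). The transcription factor Xbp1, which is also on the plasma cell list, was at 216 CPM in bone marrow against 210 CPM in spleen, with an interval of 0.97 to 1.1 around equal levels and a ratio that fell below 0 with library totals alone or the deposited RPKM. The sensor Atf6 was at 104 CPM in bone marrow, against 134 CPM in spleen, and Eif2ak3 (PERK) at 64.0 CPM in bone marrow, against 90.1 CPM in spleen.

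Among partners of the coats, those of COPII were mostly higher in bone marrow. Of 20 measured COPII partners and cargo adaptors, 17 (85.0%) had a ratio above 0, against 51.4% of all genes, with a median of 0.55. The count was 16 with library totals alone or the deposited RPKM, where Sar1a fell below 0. Towards bone marrow, 2 of the 20 (10.0%) reached 2-fold, against 14.1% of all genes. The cargo receptor Lman1 was at 148 CPM in bone marrow, against 70.5 CPM in spleen (2.10-fold, 1.91 to 2.32), and Mcfd2, its partner in carrying coagulation factors, at 80.1 CPM in bone marrow against 36.9 CPM in spleen (2.17-fold, 1.90 to 2.48). The GTPase Sar1a, which starts the coat, was level at 114 CPM in bone marrow against 109 CPM in spleen, and its exchange factor Preb was at 110 CPM in bone marrow against 146 CPM in spleen. Among 10 COPI partners none reached 2-fold (median 0.08), against 14.1% of all genes towards bone marrow and 14.6% towards spleen. Arcn1, the delta subunit of the coat, was at 258 CPM in bone marrow against 202 CPM in spleen. Of the 28 ER-Golgi tethers and SNAREs, 1 (3.57%) reached 2-fold towards bone marrow, against 14.1% of all genes (median of the list 0.18). It was Gorasp1, a Golgi stacking protein, at 29.8 CPM in bone marrow, against 12.9 CPM in spleen. None reached 2-fold towards spleen, against 14.6% of all genes.

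**Figure D5:**
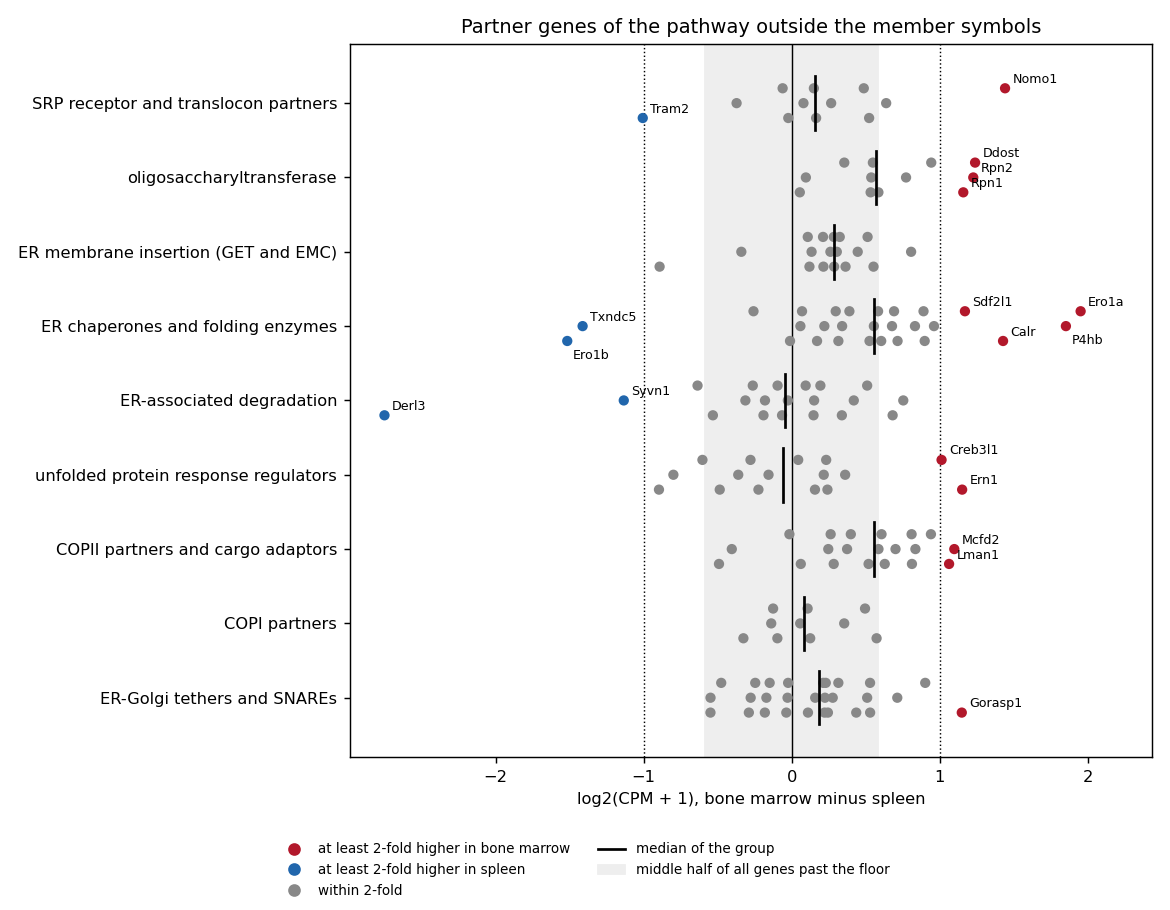
Difference between libraries (x axis, log2(CPM + 1), bone marrow minus spleen) for the 162 partner genes in rows by list, with colours, bars, lines and band as in the plot of members by role. Oligosaccharyltransferase genes all lie above 0 (Tusc3 below 0 with library totals alone), and Derl3 lies farthest towards spleen at -2.75.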

How the data were processed

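RNA-seq was measured in 1 bone marrow and 1 spleen library of sorted macrophages, grouped by the tissue label. The gene tables that the authors deposited hold, per the file headers, a count of uniquely placed reads, a length, the percent of the length covered and an RPKM value. Total RNA and standard Illumina libraries were used, per the labels' protocols. For the aligner, counter, build, annotation and strand use, nothing is given in the sources used here. The counts summed to 9625763 reads in bone marrow and 8264712 in spleen. A gene missing from a table was set to 0, which allows up to 3 reads (0.319 CPM for bone marrow, 0.355 CPM for spleen).

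Genes were joined on the Entrez identifier. Members were matched on the deposited symbol and partner genes by RefSeq symbol or synonym. TMM factors from edgeR 4.0.16 in R 4.3.3 scaled the counts. Differences are bone marrow minus spleen on log2(CPM + 1). Each fold is a CPM ratio, and its 95% interval comes from the exact binomial (Clopper-Pearson) interval of the bone marrow share of a gene's reads. PCR copies cannot be told from separate molecules here, so intervals and floors cover counting error only. Shares within paralogue sets use RPKM. With 1 library per tissue no p-value was computed. Genes named are members past the 2-fold limit, the 12 with the largest ratio in each direction, the 2 most abundant of each role, all members of paralogue sets and, from each partner list, up to 4 with the largest ratios. Other members and well known partners such as Hspa5 and Xbp1 were added after their values were seen. Members and lists were chosen with earlier results of these data known. Values were also computed with size factors from DESeq2 1.42.0, with library totals alone, with TMM without markers of other cells, with a pseudocount of 0.1 or 5, without the floor or with one at 10 CPM, with the deposited RPKM, with limits of 1.5-fold and 4-fold, and for members within role groups only.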

Additional observations from a re-analysis of the deposited data

How the results depend on the processing

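The count of members at least 2-fold higher in bone marrow stayed between 6 and 8 under every scaling, pseudocount and floor tried, 25 passed a 1.5-fold limit and 1 a 4-fold limit. The count higher in spleen was 1 with a pseudocount of 5, with a floor of 10 CPM, with the deposited RPKM and without members outside a role group, 5 with a 1.5-fold limit and 0 with a 4-fold limit. Sec1 and Sec16b lay inside 2-fold with a pseudocount of 5 (-0.46 and 0.86) and with the deposited RPKM (-0.83 and 0.86), and Sec1 was left out by the 10 CPM floor. The median log2 ratio of the members ranged from 0.37 (deposited RPKM) to 0.46 (DESeq2 size factors), and no scaling moved the median of all genes by over 0.1 (largest shift -0.06). Whole-read shares in place of RPKM made Kdelr2, not Kdelr1, the larger receptor in bone marrow, since reads are not scaled to length. With library totals alone or the deposited RPKM, 51 members had a ratio above 0 in place of 53, against 48.3% of all genes; Srp54a and Sec61a2 were the members whose sign differed. No paired analysis was possible because each tissue has 1 library, and no library could be left out for the same reason. Depth limits Copz2, Sec14l2, Sec31b, Srp54b and Sec1, which rest on 52 reads or fewer in each library.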

Other observations

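The promoter windows of the members resembled those of measured genes in composition, with a median GC content of 60.3% over 55 genes, against 60.7% over 10384 genes past the floor. An ERSE was found in windows of 7 of 23 ER chaperone and folding genes with a promoter entry (30.4%), against 1 of 55 members (1.82%) and 0.137% of all 27025 genes in the table. Of these 7 genes, Calr, Canx, Creld2, Dnajc3, Hsp90b1 and Hspa5 had a ratio above 0, and Ero1b had a ratio below 0. In the whole list of 27 genes, 23 (85.2%) had a ratio above 0, against 51.4% of all genes past the floor. A link between the motif and the ratio was not tested. Calr was at 1821 CPM in bone marrow, against 677 CPM in spleen, and Ero1b at 49.4 CPM in bone marrow against 143 CPM in spleen. In the deposited gene ontology column, 15 of 64 members (23.4%) carried a component term naming the endoplasmic reticulum, against 1.84% of genes past the floor, and 17 (26.6%) a term naming the Golgi, against 2.04%. Members were chosen by symbols of this pathway, so the higher shares follow from that choice and are not a result of the libraries.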
